A study of Sus scrofa with 12 samples.

Results

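The HOX genes were taken from the deposited pig gene table as every identifier whose symbol is HOXA, HOXB, HOXC or HOXD followed by a number, which gave 29 of 19158 gene identifiers, or 29 of the 11375 that could be paired with a symbol. They comprised 8 genes of the HOXA cluster on chromosome 18, 10 of the HOXB cluster on chromosome 12, 4 of the HOXC cluster on chromosome 5 and 7 of the HOXD cluster on chromosome 15 (chromosomes as deposited, genome build Sscrofa10.2). Here paralogs 1 to 4 are called anterior (10 genes), 5 to 9 trunk (10 genes) and 10 to 13 posterior (9 genes). A further 7 pig HOX identifiers, among them HOXC8, HOXC9 and HOXD11, are absent from the deposited counts. The rankings, sums and shares of clusters and classes below therefore leave them out.

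Polyadenylated RNA and small RNA of fetal longissimus muscle, the long muscle of the back, were sequenced in Large White pigs. RE fetuses came from sows on a calorie-restricted diet after mating and NE fetuses from sows on a normal diet, each taken 35, 55 or 90 days into gestation (dg), which gives RE35, NE35, RE55, NE55, RE90 and NE90. Each condition held 1 mRNA library and 1 miRNA library, 6 of each kind, and the sources do not say whether the RNA of several fetuses was pooled. For this reason no ratio of a pair of libraries is given a p-value, and the interval beside it reflects counting error alone, without the spread between fetuses.

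The mRNA libraries held 11091317 to 12985505 counts each and the miRNA libraries 1522142 to 3811231. Skeletal muscle markers were present in every library, with 9 of 15 listed symbols in the table and a summed level of 33982 CPM in RE35 against 17549 CPM in NE35 and 52015 to 67469 CPM in the other 4 libraries. CPM relates counts to the size of the library after TMM scaling, which removes differences in library composition. In bulk tissue, fewer cells of a type and less RNA per cell cannot be told apart. The NE35 library stood apart by kidney genes, and RE35 by cartilage genes, whose values stand beside the results they move with.

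HOX genes encode homeodomain transcription factors that give cells of the embryo their position along the head to tail axis. Their order along each cluster follows the order of their domains along the body, with low paralog numbers used from the hindbrain and neck onwards and the highest ones at the tail end, in the distal limb and around the genital tubercle. Muscle of the back arises from somites, whose HOX code depends on the level of the trunk, whereas HOXD13 is best known for its part in digit and genital development. The clusters also hold miRNA genes, in mammals miR-10a and a copy of miR-196a in HOXB, miR-10b in HOXD, miR-196b in HOXA, and miR-615 and another copy of miR-196a in HOXC.

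Of these miRNAs, miR-10b was the most abundant in every library, and the stretch of it that the study's forward qPCR primer carries is shown because it gives the seed through which the miRNA finds its targets. Capitals mark the seed, bases 2 to 8 of the mature miRNA counted from its 5′ end, written as DNA.
miR-10b: tACCCTGTagaaccga

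Transcripts of 26 HOX genes had at least 1 read in RE35, 24 in NE35, and 21 to 23 in the 4 later libraries. HOXA9 and HOXB1 had 0 counts in all 6 libraries, which by counting error alone allows up to 3 counts in each. Whether reads of HOXA9 and HOXB1 could be assigned to them was not tested, and both cluster neighbours of HOXA9 in the table, HOXA7 and HOXA10, had reads. HOXB13, HOXC11 and HOXC13 never reached 1 CPM. The highest mean level per transcript length belonged to HOXC6, a trunk paralog of thoracic segments, at 26.5 RPKM (the reads of a gene scaled to the length of its exons and to the mapped reads of the library) over the 6 libraries. HOXC6 had 30.5 RPKM in RE35 against 28.6 RPKM in NE35, 28.6 RPKM in RE55 against 24.1 RPKM in NE55, and 22.9 RPKM in RE90 against 24.5 RPKM in NE90. These values were close to each other in all 6 libraries, unlike those of most other members. The leading members of the other clusters were HOXA5 at a mean of 16.6 RPKM, HOXB7 at 11.6 RPKM and HOXD9 at 8.03 RPKM, all trunk paralogs. HOXA7, a further trunk paralog, had 9.98 to 17.4 RPKM and at least 461 counts in every library.

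**Figure D1:**
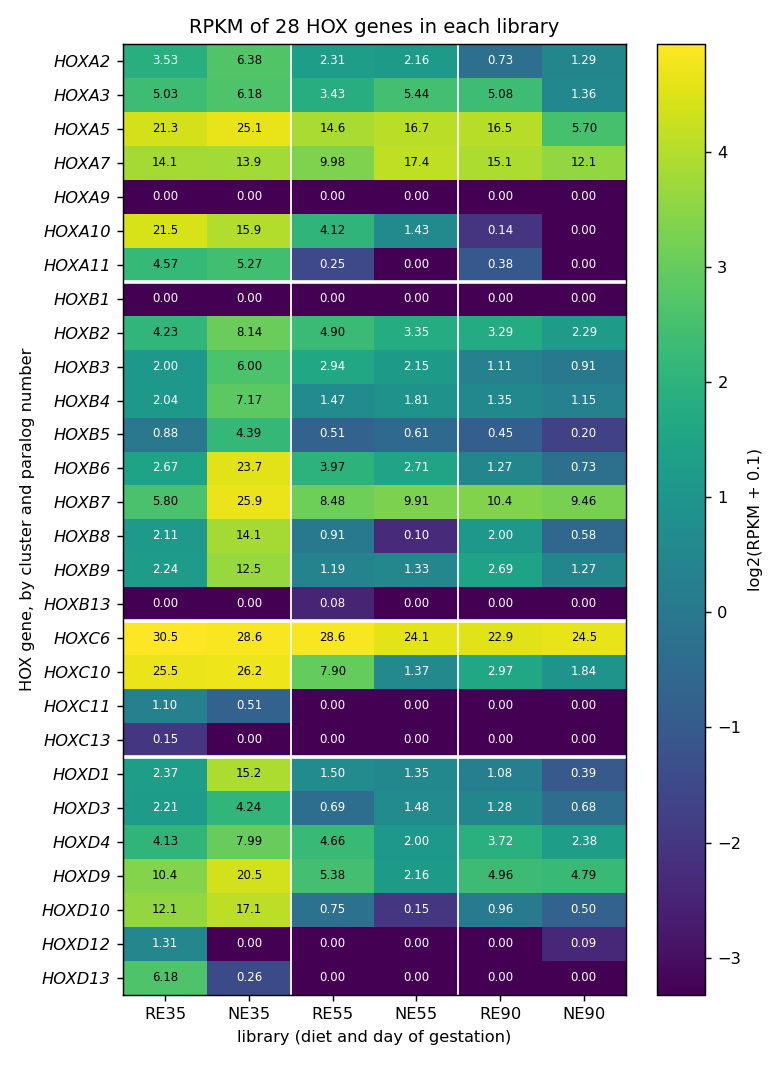
Heat map of the level of 28 HOX genes (rows, by cluster and paralog number) in the 6 mRNA libraries (columns), with the RPKM printed in each cell and the colour on a log2(RPKM + 0.1) scale. HOXC6 is bright in every column, the HOXB genes are brightest in NE35, and HOXD13 has 6.18 RPKM in RE35, 0.26 RPKM in NE35 and 0 in the other 4 libraries.

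HOXD13, the last gene of its cluster, showed the highest diet ratio of the members. It had 200 counts in RE35 against 8 in NE35, and 0 counts in RE55, NE55, RE90 and NE90. Its level was 15.0 CPM in RE35 and 0.569 CPM in NE35, a log2 ratio of 4.36 (counting interval 3.71 to 5.95), where log2 ratios come from CPM after TMM scaling and addition of a prior count of 2, and intervals are exact binomial ones of 95%. Reads of this gene were thus almost confined to a single library of the 6. Its neighbour HOXD12 had 14 counts in RE35 against 0 in NE35, at least 4.92-fold higher with a floor of 3 counts in the NE35 library, and 0, 0, 0 and 1 counts in RE55, NE55, RE90 and NE90. EVX2, the homeobox gene next to HOXD13 in mammals, had 11 counts in RE35 and 0 in the other 5 libraries, and is named here after its values were seen. HOXC11 had 9 counts in RE35 against 4 in NE35 and HOXC13 had 2 against 0, both under the 1 CPM required of a measured gene. The other posterior genes did not share the contrast of HOXD13. HOXA10 had 152 counts in RE35 against 108 in NE35, HOXA11 133 against 147, HOXC10 283 against 279 and HOXD10 163 against 221, with log2 ratios of 0.56, -0.07, 0.09 and -0.36.

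The HOXB cluster showed the opposite contrast at 35 dg. HOXB6, a trunk paralog, had 46 counts in RE35 against 392 in NE35, a log2 ratio of -2.96 (counting interval -3.49 to -2.57). HOXB9, the trunk paralog nearest the 5′ end among the measured members of this cluster, had 77 counts in RE35 against 412 in NE35 (log2 ratio -2.31), and HOXB8, which takes part in patterning of the thoracic axial skeleton in mouse, had 21 against 135 (log2 ratio -2.49). HOXB7 had 101 counts in RE35 against 432 in NE35 (log2 ratio -2.00) and HOXB5 25 against 120 (log2 ratio -2.09). Toward the anterior end the ratios were closer to 0. HOXB4 had 24 counts in RE35 against 81 in NE35 (log2 ratio -1.59), HOXB3 34 against 98 (log2 ratio -1.40) and HOXB2 59 against 109 (log2 ratio -0.79). In all, 7 of 8 measured HOXB genes were more than 2-fold lower in RE35 and the median of the 8 was -2.05.

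Outside HOXB, the anterior gene HOXD1 was lower at 35 dg. It had 59 counts in RE35 against 362 in NE35, a log2 ratio of -2.50 (counting interval -2.96 to -2.14). HOXD9 had 260 counts in RE35 against 489 in NE35 (log2 ratio -0.83), within the 2-fold limit. HOXA5, HOXA7 and HOXC6 lay near 0, with log2 ratios of -0.10, 0.15 and 0.23. Of the measured members, 0 of 2 HOXC genes and 1 of 7 HOXD genes were more than 2-fold lower in RE35.

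Over all members, 24 were measured at 35 dg, meaning at least 1 CPM in RE35 or NE35. Of these, 2 were more than 2-fold higher in RE35, where 3.8% of the 13001 measured genes were, and 9 were more than 2-fold lower, where 8.95% of all measured genes were. The members' median was -0.78, beside 0.03 for all measured genes. The plot of diet ratios shows the 3 stages side by side.

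**Figure D2:**
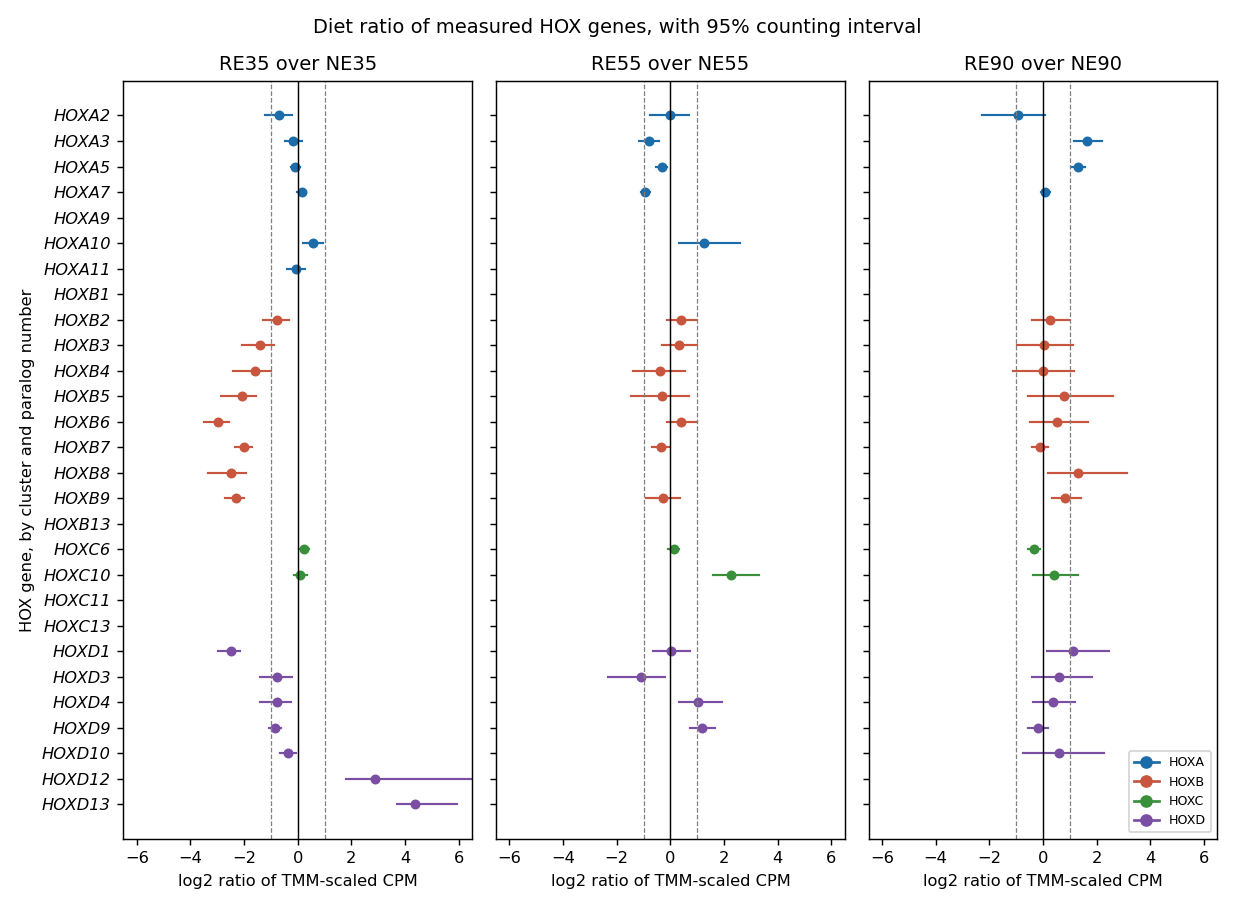
Log2 ratio of TMM-scaled CPM, RE over NE, of measured HOX genes at 35, 55 and 90 dg (panels), with 95% counting intervals as lines, 0 as the solid line and 2-fold as dashed lines. At 35 dg the HOXB points lie left of 0, down to -2.96 for HOXB6, HOXD13 lies at 4.36 and the interval of HOXD12 has no upper limit because NE35 had 0 counts. At 55 and 90 dg the HOXB points lie between -0.39 and 1.32.

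Markers of other tissues moved with these 35 dg contrasts. Of 20 listed kidney and mesonephros symbols 18 were in the table, and their summed level was 12.3 CPM in RE35 against 751 CPM in NE35, and 8.35 to 18.7 CPM in the 4 later libraries. In RE35 all 15 measured members of that list were lower by more than 2-fold, where 8.95% of all measured genes were. Most of the 15 reached 1 CPM in NE35 alone of the pair, so a lower RE35 value is built into the filter. At 0 counts in RE35 were 7 of the 18, among them CDH16, KNG1 and PAX8, while none was at 0 in NE35. Cartilage and bone markers, 15 of 17 listed, summed to 2462 CPM in RE35 against 897 CPM in NE35. Of 14 measured, 9 were more than 2-fold higher in RE35, where 3.8% of all measured genes were, led by MATN1 with 1590 counts in RE35 against 203 in NE35. The part of these tissues in the HOX contrasts was not tested. Limb bud markers, 7 of 17 listed, summed to 57.2 CPM in RE35 against 59.0 CPM in NE35, but the 6 measured members went both ways. TBX4, a hindlimb regulator, had 103 counts in RE35 against 43 in NE35 and MSX1 120 against 33, while SALL1, which kidney also expresses, had 122 against 381. TBX5 had 73 counts in RE35 against 55 in NE35, within 2-fold. SHH, a signal of the limb's posterior margin, was at 3 counts in RE35 against 0 in NE35. These counts are under the 1 CPM required of a measured gene, and SHH is named outside the rule for list genes given below. Skin markers, 8 of 13 listed, summed to 83.3 CPM in RE35 against 122 CPM in NE35, though KRT1 had 82 counts in RE35 against 4 in NE35. Neuronal markers, 10 of 13 listed, summed to 333 CPM in RE35 against 431 CPM in NE35, a sum carried by STMN2 (241 CPM in RE35 against 349 CPM in NE35), whereas 3 of 6 measured were more than 2-fold higher in RE35, 0 were lower and their median was 1.01 on the log2 scale. Some of the 6 were measured through RE35 alone, where a higher value is built into the filter. Connective tissue markers, 9 of 12 listed, summed to 11018 CPM in RE35 against 7743 CPM in NE35. Muscle markers were more than 2-fold higher in RE35 for 5 of 8 measured.

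At 55 dg the highest ratio was that of a posterior gene. HOXC10, a paralog of lumbar and limb levels, had 96 counts in RE55 against 15 in NE55, a log2 ratio of 2.27 (counting interval 1.60 to 3.29). HOXA10 had 32 counts in RE55 against 10 in NE55 (log2 ratio 1.25, counting interval 0.34 to 2.58) and HOXD9 147 against 53 (log2 ratio 1.16, counting interval 0.73 to 1.67). Among anterior genes, HOXD4 had 52 counts in RE55 against 20 in NE55 (log2 ratio 1.03) and HOXD3 13 against 25 (log2 ratio -1.10). Of 19 members measured, 5 were more than 2-fold higher in RE55, where 9.05% of all measured genes were, and 1 was more than 2-fold lower, where 11.7% were. None of the 7 measured HOXB genes passed 2-fold, with a median of -0.27, which leaves the HOXB contrast of 35 dg without a counterpart past 2-fold at 55 dg. Kidney markers summed to 11.6 CPM in RE55 against 18.7 CPM in NE55 and cartilage and bone markers to 245 CPM in RE55 against 619 CPM in NE55.

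At 90 dg the contrasts were in anterior and trunk genes of HOXA, HOXB and HOXD. HOXA3 had 153 counts in RE90 against 42 in NE90, a log2 ratio of 1.63 (counting interval 1.17 to 2.20), and HOXA5, known in mouse for its part in lung and cervicothoracic patterning, had 439 against 156 (log2 ratio 1.29, counting interval 1.03 to 1.57). HOXB8 had 20 counts in RE90 against 6 in NE90 (log2 ratio 1.32) and HOXD1 27 against 10 (log2 ratio 1.11), both with wide counting intervals that begin at 0.17 and 0.14. NE90 was the low library of the 6 for HOXA3 and HOXA5, since the other 5 had at least 113 and 425 counts of them. Of 20 members measured, 4 were more than 2-fold higher in RE90, where 10.3% of all measured genes were, and 0 were more than 2-fold lower, where 7.18% were. Their median was 0.40, beside 0.08 for all measured genes. Cartilage and bone markers summed to 567 CPM in RE90 against 151 CPM in NE90 and neuronal markers to 76.3 CPM in RE90 against 21.3 CPM in NE90. Of those measured, 9 of 11 and 4 of 6 were more than 2-fold higher in RE90, some of them measured through RE90 alone, where a higher value is built into the filter. The part of these markers in the HOX values was not tested.

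Between 35 and 55 dg the posterior genes were lower at the later stage in both diets. HOXD10 had 11 counts in RE55 against 163 in RE35, and 2 in NE55 against 221 in NE35, with log2 ratios of -3.60 and -5.48. HOXA11, which acts in limb and kidney development, had 8 counts in RE55 against 133 in RE35 (log2 ratio -3.69), and 0 in NE55 against 147 in NE35, at least 36.9-fold lower with a floor of 3 counts in NE55. HOXC10 had 96 counts in RE55 against 283 in RE35 (log2 ratio -1.49) and 15 in NE55 against 279 in NE35 (log2 ratio -3.66). HOXD13 was at least 64.4-fold lower in RE55 than in RE35. HOXA10 had 32 counts in RE55 against 152 in RE35 (log2 ratio -2.12) and 10 in NE55 against 108 in NE35 (log2 ratio -2.82). Under restriction HOXA10 and HOXC10 reached 1 CPM at both stages, and under the normal diet HOXC10 did, while the other posterior genes were measured through the 35 dg library of the pair alone, where a lower value at 55 dg is built into the filter. Markers of other tissues were lower as well. Cartilage and bone markers were more than 2-fold lower at 55 dg for 14 of 14 measured in RE55 and 10 of 14 in NE55, beside 8.47% and 17.2% of all measured genes. Of the 14, 7 were called lower by edgeR, where 0.808% of all genes were, some having entered the test through the 35 dg libraries alone. Limb bud markers were more than 2-fold lower for 5 of 6 measured in each diet and summed to 10.01 CPM in RE55 against 57.2 CPM in RE35, and 15.3 CPM in NE55 against 59.0 CPM in NE35. Several of these cartilage genes and most of these limb bud genes were measured through the 35 dg library of the pair alone, with the same limit of the filter. Their part in the posterior HOX values was not tested.

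Over the same interval the trunk genes gave unlike counts under the diets. In RE55 none of 9 measured trunk genes was more than 2-fold lower than in RE35, where 8.47% of all measured genes were. In NE55, 5 of 9 were more than 2-fold lower than in NE35, where 17.2% were. HOXB6 had 75 counts in RE55 against 46 in RE35, and 46 in NE55 against 392 in NE35, with log2 ratios of 0.73 and -2.64. HOXD9 had 147 counts in RE55 against 260 in RE35 (log2 ratio -0.76) and 53 in NE55 against 489 in NE35 (log2 ratio -2.76). For the HOXB cluster as a whole, 0 of 8 genes were more than 2-fold lower in RE55 than in RE35 (median 0.06 on the log2 scale), and 6 of 8 in NE55 compared with NE35 (median -1.88). HOXB summed to 24.4 RPKM in RE55 against 22.0 RPKM in NE55, and to 22.0 RPKM in RE35 against 102 RPKM in NE35. These counts thus use the same NE35 values as the diet contrast of 35 dg and are no separate result. The difference between the diets was not tested. HOXC6 and HOXA7 stayed within 2-fold over this interval in both diets, with log2 ratios of 0.09 and -0.31 under restriction and 0.20 and 0.77 under the normal diet.

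Counted over all members, 7 of 24 measured were more than 2-fold lower in RE55 than in RE35, beside 8.47% of all measured genes, and 1 was more than 2-fold higher, beside 7.5%. Under the normal diet, 16 of 22 were more than 2-fold lower in NE55 than in NE35 (17.2% of all measured genes) and 0 were more than 2-fold higher (15.6%). In RE90, 5 of 21 were more than 2-fold lower than in RE55 (8.86% of all measured genes), among them HOXA10 with 1 count in RE90 against 32 in RE55, and 2, HOXB8 and HOXB9, were more than 2-fold higher (9.84%). In NE90, 5 of 18 were more than 2-fold lower than in NE55 (13.2%) and 2, HOXD9 among them, were more than 2-fold higher (8.84%). Over the whole span, 7 of 23 were more than 2-fold lower in RE90 than in RE35 (13.5%) and 1, HOXB7, was higher (12.9%), while 18 of 22 were more than 2-fold lower in NE90 than in NE35 (20.5%) and 0 higher (12.3%). Scaled by library size alone, 5 members were lower and 1 higher in RE90 against RE55, beside 1241 and 1132 of all measured genes. In NE90 against NE55, 7 were lower and 1 higher (2728 and 540 of all measured genes). In RE90 against RE35, 10 were lower and 0 higher (2594 and 1206). The medians over the whole span were -0.55 in RE90 and -1.89 in NE90, beside -0.04 and -0.09 for all measured genes.

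Stage was also tested over both diets, with the 6 libraries in a model of stage and diet (quasi-likelihood test of edgeR, 2 residual degrees of freedom, Benjamini-Hochberg adjusted over 12872 genes). The error behind these p-values is what stage and an overall diet difference leave unexplained in the 6 libraries. With 1 library per condition it does not measure the spread between fetuses. Of 22 members tested, 2 were lower at 55 than at 35 dg, where 0.808% of all genes were, and 0 were higher, where 1.15% were. HOXD10 fell by 4.81 on the log2 scale (standard error 0.710, edgeR adjusted p = 0.00614) and HOXA11 fell by 5.45 (standard error 1.08, edgeR adjusted p = 0.0263), a size that depends on the prior count since NE55 had 0 counts. HOXA11 reached 1 CPM in NE35 and RE35 alone, so it entered this test through the stage where it is high, and its call is given as a description. Outside 35 dg HOXD10 reached 1 CPM in RE90 alone and HOXA10 in RE55 alone. Without the 35 dg libraries neither would have entered, so the call of HOXD10 is also a description. HOXC10 and HOXA10 had fold changes of -2.49 and -2.59 and edgeR adjusted p of 0.0569 and 0.0580, on the other side of the threshold. DESeq2 called 5 members lower, HOXD10 among them, and gave HOXA11 an adjusted p of 0.0512, with 532 of all genes called where edgeR called 252. Without the NE35 library HOXD10 was the single member called by edgeR, and the number was 6 without RE35, 7 without NE90 or without RE90, and 9 without RE55. The genes called over the whole table moved too, from 67 without NE35 to 1430 without RE55.

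At 90 against 35 dg, 4 members were lower, where 3.38% of all genes were, and 0 were higher, where 3.87% were. All 4 are posterior paralogs. Outside 35 dg HOXA10 reached 1 CPM in RE55 alone and HOXD10 in RE90 alone. Without the 35 dg libraries neither would have entered the test, so their calls are given as a description. HOXA10 fell by 7.49 on the log2 scale (edgeR adjusted p = 0.00123), a value that depends on the prior count since RE90 had 1 count and NE90 0, HOXD10 fell by 3.96 (edgeR adjusted p = 0.00500), HOXC10 fell by 3.09 (edgeR adjusted p = 0.0106) and HOXA11 fell by 4.86 (edgeR adjusted p = 0.0171), again with 0 counts in NE90 and having entered the test through the 35 dg libraries alone. DESeq2 called 6 members, the same 4 with HOXB6 and HOXD1, where it called 1366 of all genes and edgeR 933, and without NE35 edgeR called HOXA10 alone. It called 7 members without RE35, 8 without RE90, and 9 without NE55 or without RE55, with 260 genes of the whole table called without NE35 and 2364 without RE55. Between 90 and 55 dg the edgeR test called 0% of genes higher and 0% lower, so 0 members. A single member, 1 of 22, reached an unadjusted p below 0.05, and the DESeq2 test likewise called 0 members. With a library left out, HOXA10 was called without NE35 and without RE55, and HOXA10 and HOXB6 without NE55.

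For diet over all stages, edgeR called 0% of genes higher and 0% lower in RE, and 0 of the 22 members tested. With the unadjusted p, 0 of them lay below 0.05, and by DESeq2 0 members were called. HOXD13 was not among the 22, because it reached 1 CPM in a single library. With no filter on low counts edgeR called it, with 54 genes of the whole table called. Its log2 fold change of 4.54 there rests on the 35 dg pair alone, since the gene was at 0 in the other 4 libraries. That call is given as a description, without a p-value.

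Summed over all 29 members, the HOX level was 188 RPKM in RE35 against 297 RPKM in NE35, 110 RPKM in RE55 against 98.0 RPKM in NE55, and 99.0 RPKM in RE90 against 73.2 RPKM in NE90. RPKM carry no TMM scaling. In TMM-scaled CPM the sum was 265 in RE35 against 385 in NE35, 183 in RE55 against 211 in NE55, and 200 in RE90 against 164 in NE90. The order of the diets at 55 dg thus depends on the measure. The shares that follow refer to the RPKM sums. Posterior genes took 38.5% of the summed RPKM in RE35 against 22.0% in NE35, 11.9% in RE55 against 3.01% in NE55, and 4.49% in RE90 against 3.32% in NE90. The posterior share was thus highest at 35 dg and was higher in RE at each stage. As a share of counts it was 27.0% in RE35 (95% exact binomial interval 25.6% to 28.5%) against 14.2% in NE35 (13.2% to 15.1%), 6.29% in RE55 (5.34% to 7.34%) against 1.21% in NE55 (0.799% to 1.76%), and 2.58% in RE90 (1.96% to 3.32%) against 1.79% in NE90 (1.21% to 2.57%). At 90 dg the intervals of the diets overlapped. The posterior genes without HOXD13 summed to 66.2 RPKM in RE35 against 65.0 RPKM in NE35. Trunk genes summed to 90.0 RPKM in RE35 against 169 RPKM in NE35, and anterior genes to 25.8 RPKM in RE35 against 62.7 RPKM in NE35. By cluster, HOXB summed to 22.0 RPKM in RE35 against 102 RPKM in NE35, while HOXA summed to 70.1 against 74.1 RPKM and HOXC to 57.3 against 55.3 RPKM. HOXB was between 16.6 and 24.4 RPKM in the 4 later libraries, so NE35 was the high library for this cluster.

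**Figure D3:**
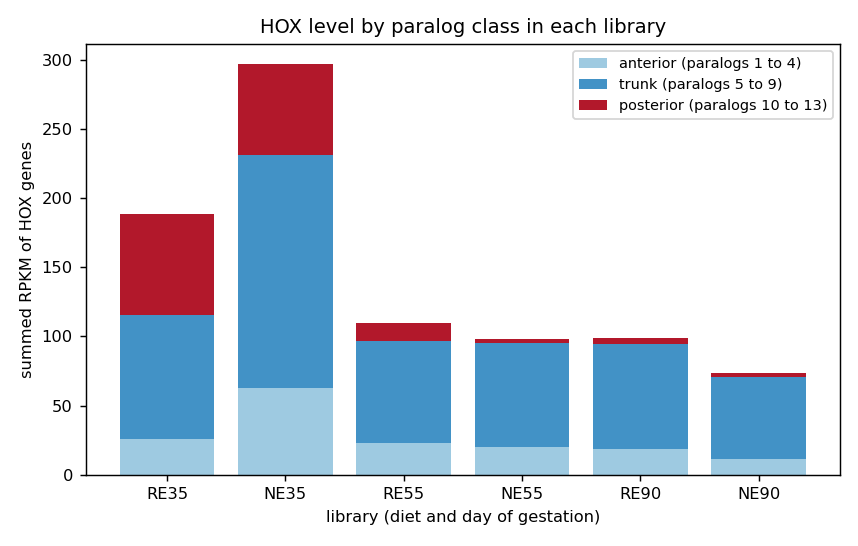
Summed RPKM of the anterior (paralogs 1 to 4), trunk (5 to 9) and posterior (10 to 13) HOX genes in each of the 6 mRNA libraries, as stacked bars. The posterior part is 72.4 RPKM in RE35 and 65.3 RPKM in NE35 and at most 13.1 RPKM in the later libraries, and the trunk part is largest in NE35.

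HOX proteins bind DNA together with PBX, MEIS and PKNOX homeodomain partners. Of 9 such genes listed, 5 were in the table and 3 were measured at 35 dg. PBX3 had 818 counts in RE35 against 894 in NE35, PBX2 803 against 836 and PBX4 428 against 364, and 0 of the 3 passed 2-fold between diets at any stage. In the edgeR tests 0 of them passed for stage or diet. Between 90 and 35 dg PBX4 had an edgeR adjusted p of 0.0865.

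Of 24 listed genes that act upstream of HOX expression or on its chromatin, 19 were in the table and 17 were measured at 35 dg, and 1 passed 2-fold in each direction in RE35. The lower one was ALDH1A2, which makes retinoic acid, a signal that switches on anterior HOX genes, with 740 counts in RE35 against 2404 in NE35 (log2 ratio -1.62), 1783 in RE55 against 448 in NE55 (log2 ratio 1.71) and 393 in RE90 against 552 in NE90. The higher one was KDM6B, a histone H3 lysine demethylase, with 82 counts in RE35 against 40 in NE35. The retinoic acid receptors RARG and RARB had 763 and 248 counts in RE35, against 499 counts of RARG and 408 of RARB in NE35, within 2-fold. At 55 dg 2 of 17 were more than 2-fold higher in RE55, where 9.05% of all measured genes were. At 90 dg 4 of 17 were more than 2-fold higher in RE90, where 10.3% were. In the edgeR tests 1 of 17 passed, CBX2, a subunit of the Polycomb complex that keeps HOX genes silent, which fell by 2.62 on the log2 scale at 90 against 35 dg (edgeR adjusted p = 0.00431). The count is near the share over all genes, of which 3.38% were called lower and 3.87% higher in that comparison.

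Genes that flank the clusters were measured as local comparison. Of 13 listed symbols 11 were in the table. Of the 9 measured at 35 dg 2 were more than 2-fold lower in RE35 and 0 higher, beside 8.95% and 3.8% of all measured genes. SKAP1, a neighbour of HOXB, had 77 counts in RE35 against 196 in NE35 (log2 ratio -1.25), the same direction as the HOXB genes, while SNX11, also beside HOXB, had 144 against 195 (log2 ratio -0.36). HIBADH, near HOXA, had 142 counts in RE35 against 248 in NE35 (log2 ratio -0.72), and MTX2, beside HOXD, 237 against 336 (log2 ratio -0.43). At 55 dg 0 of 8 passed 2-fold and at 90 dg 1 of 8 did, higher in RE90, where 10.3% of all measured genes were. In the edgeR test of 90 against 35 dg SKAP1 fell (adjusted p = 0.00820) and HIBADH rose (adjusted p = 0.0249), beside 3.38% of all genes lower and 3.87% higher.

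The small RNA libraries gave a separate readout of the clusters. miR-10a-5p, whose gene lies in HOXB, had 6445 TPM (reads relative to all reads on mature miRNAs of the library) in RE35 against 17621 TPM in NE35, a log2 ratio of -1.45 (counting interval -1.48 to -1.42). It had 4406 TPM in RE55 against 2528 TPM in NE55, and 5090 TPM in RE90 against 2044 TPM in NE90, with log2 ratios of 0.80 and 1.32. NE35 was the high library for it, as it was for the HOXB mRNAs. The other arm, miR-10a-3p, had 202 reads in RE35 against 301 in NE35 and log2 ratios of -1.52, 0.57 and 1.97 at the 3 stages. miR-10b, of the HOXD cluster, had 37559 TPM in RE35 against 62114 TPM in NE35 (log2 ratio -0.73), 30090 TPM in RE55 against 22693 TPM in NE55 (log2 ratio 0.41) and 39036 TPM in RE90 against 40299 TPM in NE90 (log2 ratio -0.05). Reads of miR-10a-5p and miR-10b are nearly identical in sequence, as are those of miR-196a and miR-196b-5p, so the split within each pair is uncertain.

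miR-196a and miR-196b, which in mouse direct cleavage of the Hoxb8 mRNA, were higher in RE35 than in NE35. miR-196a had 3822 reads in RE35 against 1212 in NE35, or 1308 TPM against 796 TPM (log2 ratio 0.72, counting interval 0.62 to 0.81), while HOXB8 had 21 counts in RE35 against 135 in NE35. At 55 dg miR-196a had 169 TPM in RE55 against 70.8 TPM in NE55 (log2 ratio 1.26) and at 90 dg 298 TPM in RE90 against 76.5 TPM in NE90 (log2 ratio 1.96), so RE was the higher library at each stage. HOXB8 had 10 counts in RE55 against 1 in NE55, both under the 1 CPM required of a measured gene. It had 20 counts in RE90 against 6 in NE90, with a counting interval of the log2 ratio that begins at 0.17. On these few counts it was higher in RE together with miR-196a, and a relation of the 2 was not tested. miR-196b-5p had 3904 TPM in RE35 against 2654 TPM in NE35 (log2 ratio 0.56), 383 TPM in RE55 against 761 TPM in NE55 (log2 ratio -0.99) and 792 TPM in RE90 against 405 TPM in NE90 (log2 ratio 0.97). miR-615, from the HOXC cluster, had 229 reads in RE35 against 141 in NE35 (log2 ratio -0.24 in TPM, counting interval -0.55 to 0.07), 30 in RE55 against 19 in NE55 and 39 in RE90 against 6 in NE90. The 3p arm of miR-196b had at most 6 reads in any library.

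Of 6 cluster miRNAs with at least 10 reads in a library of the pair, 0 were more than 2-fold higher in RE35 (4.53% of 397 miRNAs were) and 2, both arms of miR-10a, were more than 2-fold lower (13.1%). In RE55, 2 were higher by more than 2-fold (5.83%) and 0 were lower (4.72%), and in RE90, 4 were higher (8.99%) and 0 were lower (2.25%). With TMM-scaled counts in place of TPM the RE55 numbers became 1 higher and 1 lower, miR-196b-5p at -1.23. In the edgeR tests over both diets, 2 of 6 were lower at 55 than at 35 dg, where 11.4% of 377 miRNAs were, and 0 higher, where 16.2% were. These were miR-196a, which fell by 3.03 on the log2 scale (standard error 0.415, edgeR adjusted p = 0.0203), and miR-615, which fell by 3.01 (standard error 0.676, edgeR adjusted p = 0.0371). miR-196b-5p had a fold change of -2.23 and an edgeR adjusted p of 0.0506. Between 90 and 35 dg the called miRNAs were again miR-196a, which fell by 2.24 (edgeR adjusted p = 0.0229), and miR-615, which fell by 3.51 (edgeR adjusted p = 0.0270), beside 17.2% of miRNAs lower and 19.1% higher. Without NE35 or without RE35, 0 of the 6 were called in either test. At 55 against 35 dg 1 was called without NE55 and 0 without RE55, and at 90 against 35 dg 0 were called without NE90 and 4 without RE90. Between 90 and 55 dg edgeR called 0% of miRNAs in either direction (at an unadjusted p below 0.05 there were 21 of 377, none of them a cluster miRNA, and by DESeq2 0 of the 6 were called). For diet it also called 0%, with miR-196a the single cluster miRNA at an unadjusted p under 0.05 and DESeq2 calling 0 of the 6.

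**Figure D4:**
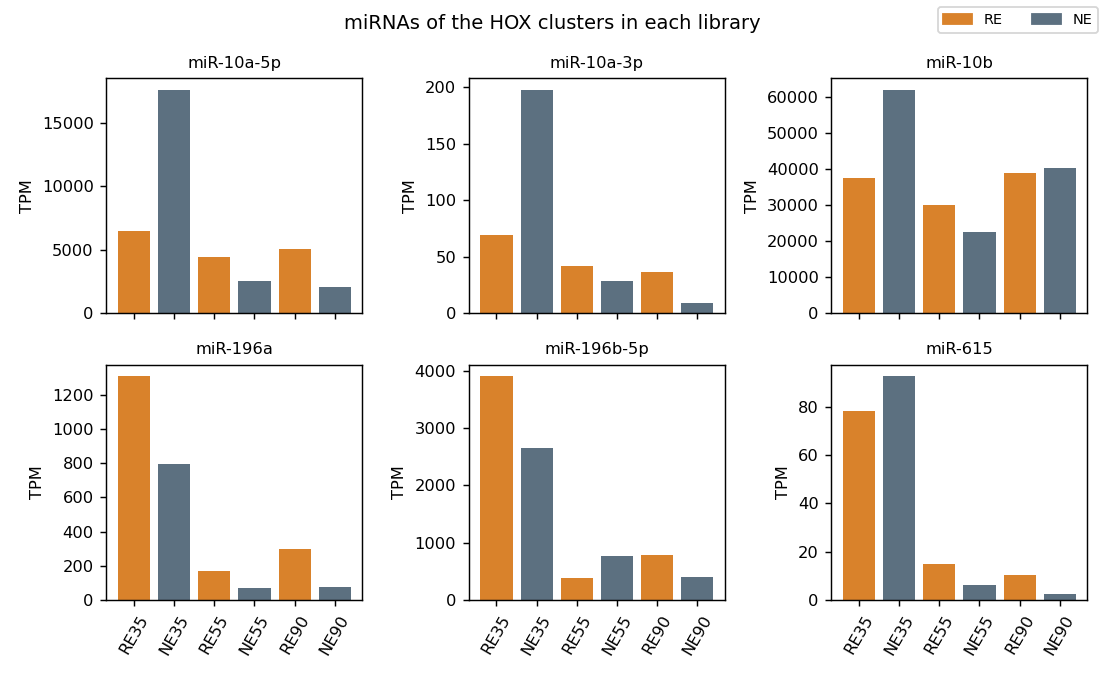
TPM of 6 mature miRNAs of the HOX clusters in each miRNA library (orange RE, grey NE), on linear axes that start at 0. miR-10a-5p is highest in NE35 at 17621 TPM, and miR-196a is higher in RE than in NE at each stage, at 1308, 169 and 298 TPM in RE35, RE55 and RE90.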

How the data were processed

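Counts per gene and RPKM (rounded to 2 decimals) were deposited by the authors, who trimmed reads with FASTX-Toolkit, aligned them with TopHat2 to Sscrofa10.2 and discarded reads with more than 1 genome location. For small RNA the authors trimmed adaptors, used Bowtie and miRDeep2, and deposited a count for each miRNA beside its TPM, a scaling to the same total over the miRNAs of each library. Restricted-diet columns are named SE in the tables and were read as RE. How overlapping or paralogous genes were counted is not given in the sources used here beyond this.

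Of the 29 HOX symbols, 27 came from a gene name table and 2, HOXD13 and HOXB9, from identifier pairs in the study's supplement. Analyses used R 4.3.3, edgeR 4.0.16, limma 3.58.1, DESeq2 1.42.0, Python 3.11.15, pandas 2.3.3, numpy 2.4.6, scipy 1.17.1 and matplotlib 3.10.9. Pair ratios are TMM-scaled log2 CPM with a prior count of 2, for genes with at least 1 CPM in 1 of the libraries, and calls are more than 2-fold. Tests used the edgeR quasi-likelihood fit with stage and diet, for genes with at least 1 CPM, or 10 or more reads for a miRNA, in no fewer than 2 libraries, and adjusted p under 0.05. Standard errors are the fold change over the root of the F statistic. The scripts were tested on simulated data. Alternatives covered scaling, prior counts, filters, pseudocounts, DESeq2, covariates and leaving out libraries.

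Members and lists were chosen with earlier results of these data known. Values in every library are given for HOXD13, for members past 2-fold between diets at any stage or called in a test, and for the highest member of each cluster by mean RPKM; up to 4 genes per other list, those of the largest 35 dg diet ratio with at least 5 CPM, were eligible to be named. The miR-10b sequence was read from the study's primer table. Results of 1 member are not reported here by name.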

Additional observations from a re-analysis of the deposited data

Results flagged for a closer look

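In 2 members the diet ratio was more than 2-fold in opposite directions at different stages, a difference that was not tested. HOXB8 had log2 ratios of -2.49 in RE35 against NE35 and 1.32 in RE90 against NE90, and HOXD1 had -2.50 and 1.11 in the same comparisons. Each condition has 1 library, and the ratios at 90 dg rest on at most 27 counts of a library.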

How the results depend on the processing

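Each condition has 1 library, so no alternative replaces a replicate. Of the HOX diet ratios recomputed under another setting, 159 stayed past 2-fold in the same direction and 9 fell within 2-fold in the same direction. Settings that change only the filter on low counts leave a ratio as it is, so these could not move any. For the cluster miRNAs, 9 TPM ratios moved by less than the counting interval with TMM-scaled counts and 10 by more, and miR-615 at 35 dg had 0.01 there, beside -0.24 in TPM. Scaling by library size alone moved the median of all genes to as low as -0.80 on the log2 scale (NE90 against NE35, from -0.09), and that of RE90 against NE90 to 0.39. It left 2 members higher and 9 lower in RE35 against NE35, beside 369 and 1515 of all measured genes.

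The number of members past 2-fold moved by more than 1.5 times as follows. Numbers in brackets are those over all measured genes in the same setting. Library size alone gave 1 higher in NE90 against NE55 (540), 1 higher in RE90 against RE55 (1132), and 0 higher (1206) and 10 lower (2594) in RE90 against RE35. A prior count of 0.5 gave 1 lower in RE90 against NE90 (945), and one of 5 gave 0 lower in RE55 against NE55 (1328) and 1 higher in RE90 against RE55 (1123). With no filter on low counts 8 were higher in RE55 against NE55 (1609), 4 higher in NE90 against NE55 (1635) and 2 higher in RE90 against RE35 (2267). With at least 5 CPM, 1 was higher in RE35 against NE35 (251), 2 higher (705) and 0 lower (1020) in RE55 against NE55, and 2 higher in RE90 against NE90 (705). The same filter gave 1 higher (758) and 2 lower (1033) in NE90 against NE55, 0 higher in RE55 against RE35 (545), and 1 higher (765) and 2 lower (671) in RE90 against RE55. RPKM with a pseudocount of 0.1 gave 0 higher in RE90 against RE35 (1170). With a pseudocount of 1 the numbers were 3 higher (733) and 0 lower (521) in RE55 against NE55, 2 higher in RE90 against NE90 (794), and 0 higher (452) and 3 lower (997) in NE90 against NE55. They were 0 higher in RE55 against RE35 (374), 0 higher (560) and 3 lower (635) in RE90 against RE55, and 0 higher in RE90 against RE35 (777). The stricter filters test fewer genes; otherwise the cause was not tested.

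In the tests, DESeq2 called 5 members at 55 against 35 dg and 4 cluster miRNAs at 90 against 35 dg. With no filter on low counts edgeR called 9 members at 55 against 35 dg, 7 at 90 against 35 dg, 1 at 90 against 55 dg and 1 for diet, with 688, 1476, 49 and 54 of all genes called. The 1 for diet is HOXD13, whose call rests on the 35 dg pair alone. With 1 library left out the members called ranged from 1 to 9 at 55 against 35 dg, from 0 to 2 at 90 against 55 dg and from 1 to 9 at 90 against 35 dg, and the cluster miRNAs from 0 to 3 at 55 against 35 dg and from 0 to 4 at 90 against 35 dg. A left-out library leaves a stage with a lone sample, assumed to vary like the others.

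The posterior share of the HOX level was 45.2% in RE35 against 33.1% in NE35, 17.9% in RE55 against 6.57% in NE55 and 12.2% in RE90 against 11.6% in NE90 when paralog 9 was counted as posterior. Without HOXC6 it was 45.9% in RE35 against 24.4% in NE35, 16.1% in RE55 against 3.99% in NE55 and 5.85% in RE90 against 4.98% in NE90. From raw counts it was 27.0% in RE35 against 14.2% in NE35, 6.29% in RE55 against 1.21% in NE55 and 2.58% in RE90 against 1.79% in NE90.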
